A study of Mus musculus with 6 samples.

Results

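Intermediate filaments are rope-like protein polymers that set the calibre and the strength of cells and axons. The set described here holds 7 genes, *Nefl*, *Nefm*, *Nefh*, *Prph*, *Ina*, *Vim* and *Nes*, taken by symbol from a count table of 53858 mouse genes. All 7 symbols were found, each in 1 row. Expression was measured by RNA sequencing in 6 pools of spinal motor neurons picked from wild-type mice, 6 days after a crush of the sciatic nerve. In all pools the cells carried DiO, a lipophilic green dye given at the proximal site of the nerve on day 0, which enters through the damaged membrane of cut axons. The first group of 3 pools had DiO only (DiO+/DiI-). The second group of 3 pools also carried DiI (DiO+/DiI+), a red dye given at the distal site on day 2, which by the study's design marks the neurons with the earliest axons there. Both groups were injured, and no uninjured neurons are among these libraries. A pool held 10 to 15 cells, so a level is an average over few cells and can move with 1 of them. All libraries came from 3 batches, but the labels do not say which library was in which batch, so no within-batch value can be given. The sources do not tie pools to animals either, so a p-value covers the spread between these pools, which may be technical.

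In a mature motor neuron, the light, medium and heavy neurofilament chains (*Nefl*, *Nefm*, *Nefh*) assemble with α-internexin (*Ina*) or peripherin (*Prph*) into the filaments that fill the axon. The light chain is needed for assembly, and the medium and heavy chains carry long tails that are phosphorylated in the axon. Peripherin is typical of neurons that send axons outside the central nervous system, α-internexin of developing and central neurons. Vimentin (*Vim*) and nestin (*Nes*) form filaments in glia, vascular cells, fibroblasts and neural precursors, and vimentin precedes the neurofilaments in young neurons.

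The 3 neurofilament chains overlapped between the groups, while *Ina* and *Vim* were lower in the double-labelled pools. *Ina* was 2.32-fold and *Vim* 2.19-fold lower in the fit over all genes. For both genes every double-labelled pool stood below every DiO-only pool, which for *Vim* depended on how libraries were scaled. *Nefl*, *Nefm*, *Nefh* and *Prph* had overlapping groups, with fitted log2 fold changes of 0.09, -0.10, -0.21 and -0.46. None of these differences passed the test: of the 6 genes tested, 0 had an edgeR adjusted p under 0.05, against 0% of the 12954 genes tested. *Nes* had too few counts for the test. The median log2 fold change was -0.33 over the 6 genes and 0.02 over all genes tested.

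At an unadjusted p under 0.05, 2 of the 6 genes were lower, *Ina* and *Vim*, against 2.63% of all genes tested. None of the 6 was higher at that level, against 3.18% of all genes. At the scaling used, the same 2 genes were lower without overlap between the groups, against 7.07% of all genes, and 0 were higher without overlap, against 5.86%. In all, 5 of 6 fold changes were below 0, against 48.7% of all genes. DESeq2 called 75 genes and limma voom 0, with none of the 7 genes among them.

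*Nefl* encodes the light chain (ENSMUSG00000022055; mm10 chromosome 14, 68083863 to 68089095, plus strand). It stood at 10205, 10219 and 6484 CPM in DiO-only pools 1, 2 and 3, and at 7659, 9922 and 11139 CPM in double-labelled pools 1, 2 and 3. CPM are counts per 1000000 counts of the library, here scaled further with TMM factors. The lowest and the highest of these 6 values lay in different groups, the lowest in DiO-only pool 3 and the highest in double-labelled pool 3. The means were 8970 ± 2153 and 9573 ± 1766 CPM (SD, n = 3), with a log2 fold change of 0.09 ± 0.36 (SE; edgeR adjusted p = 0.987).

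*Nefm*, of the medium chain (ENSMUSG00000022054; chromosome 14, 68082590 to 68124846, on the minus strand), was at 16302, 12814 and 7727 CPM in the DiO-only pools and at 11640, 9910 and 12714 CPM in the double-labelled pools. The double-labelled values lay inside the DiO-only range. The means were 12281 ± 4313 and 11421 ± 1415 CPM (SD, n = 3), with a log2 fold change of -0.10 ± 0.38 (SE; edgeR adjusted p = 0.987). *Nefh*, of the heavy chain (ENSMUSG00000020396; chromosome 11, 4938754 to 4948064, on the minus strand), was at 11843, 9991 and 5314 CPM and at 7017, 8708 and 7783 CPM. Here too the double-labelled values lay inside the DiO-only range, which ran from pool 3 at the bottom to pool 1 at the top. The means were 9049 ± 3365 and 7836 ± 847 CPM (SD, n = 3), with a log2 fold change of -0.21 ± 0.38 (SE; edgeR adjusted p = 0.987). DiO-only pool 3 was the lowest of the 6 libraries for all 3 chains. On the log2 scale the SD between DiO-only pools was 0.38, 0.55 and 0.61 for *Nefl*, *Nefm* and *Nefh*, and between double-labelled pools 0.28, 0.18 and 0.16; the difference in spread was not tested.

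*Prph* encodes peripherin (ENSMUSG00000023484; chromosome 15, 99055174 to 99058978, plus strand). It stood at 3014, 2135 and 1688 CPM in the DiO-only pools and at 1606, 1003 and 2365 CPM in the double-labelled pools. Double-labelled pools 1 and 2 lay below every DiO-only pool, and pool 3 lay above the lower pair of them. The log2 fold change was -0.46 ± 0.39 (SE; edgeR adjusted p = 0.966). Single libraries moved this value: it was -0.215 without DiO-only pool 1, -0.221 without double-labelled pool 2 and -0.815 without double-labelled pool 3, and limma voom gave -0.79 (unadjusted p = 0.0379, adjusted 0.630).

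*Ina*, of α-internexin (ENSMUSG00000034336; chromosome 19, 47014698 to 47025327, plus strand), had the smallest p of the set, rank 87 among all genes tested. It stood at 441, 707 and 504 CPM in the DiO-only pools and at 194, 320 and 199.8 CPM in the double-labelled pools. A gap separated the groups, with 441 CPM in the lowest DiO-only pool against 320 CPM in the highest double-labelled one. The means were 551 ± 139 and 238 ± 71.4 CPM (SD, n = 3), with a log2 fold change of -1.21 ± 0.33 (SE; unadjusted p = 0.00382, edgeR adjusted p = 0.569). Over 14 other settings the fold change ran from -1.51 to -0.98 and the adjusted p from 0.0699 to 1.00.

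*Vim*, of vimentin (ENSMUSG00000026728; chromosome 2, 13573927 to 13582826, plus strand), ranked 214 by p. It stood at 95.3, 183 and 155 CPM in the DiO-only pools and at 47.7, 92.2 and 58.1 CPM in the double-labelled pools. The groups touched without overlap, since DiO-only pool 1 at 95.3 CPM stood barely above double-labelled pool 2 at 92.2 CPM. With the size factors of DESeq2 in place of TMM factors, this pair of pools changed places, so the separation depends on the scaling. The means were 145 ± 45.0 and 66.0 ± 23.3 CPM (SD, n = 3), with a log2 fold change of -1.13 ± 0.38 (SE; unadjusted p = 0.0115, edgeR adjusted p = 0.675). Over the same 14 settings it ran from -1.47 to -0.88, with adjusted p from 0.206 to 1.00. In bulk pools, fewer cells of a type and less RNA per cell cannot be told apart.

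*Nes*, of nestin (ENSMUSG00000004891; chromosome 3, 87971078 to 87980451, plus strand), had 14 counts over all 6 libraries. These were 0, 7 and 5 counts in the DiO-only pools and 2, 0 and 0 in the double-labelled pools. In a library, 3 counts correspond to 0.399 to 1.09 CPM, the limit that a count of 0 allows, and the highest *Nes* value was 2.32 CPM. A difference in *Nes* was not detectable at this depth.

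**Figure D1:**
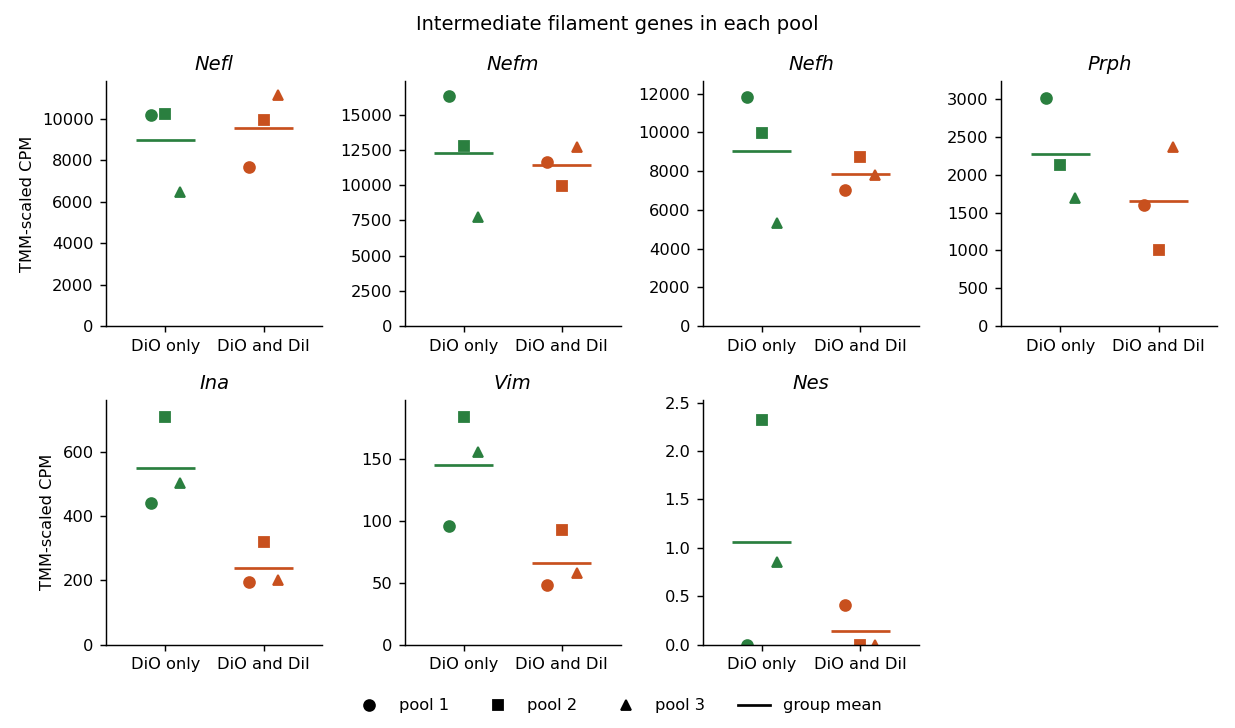
Level of each of the 7 genes by pool, in TMM-scaled CPM on linear axes that start at 0, with 1 symbol per pool and a bar at the group mean. *Ina* and *Vim* show double-labelled pools (orange) below all DiO-only pools (green), whereas the groups overlap for *Nefl*, *Nefm*, *Nefh*, *Prph* and *Nes*.

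Levels of different genes can be compared only per length of transcript, for which TMM-scaled CPM were divided by the kilobases of annotated exon. Per kilobase, with all annotated transcripts of a gene merged, *Nefl* came first in all 6 libraries. It stood at 2654 ± 637 and 2832 ± 523 CPM per kilobase in DiO-only and double-labelled pools (SD, n = 3). *Nefm* stood at 2124 ± 746 and 1975 ± 245, and *Nefh* at 2266 ± 842 and 1962 ± 212 CPM per kilobase. *Nefm* and *Nefh* did not differ beyond their spread and changed places between libraries at these lengths. The *Nefm* length, 5782 bases, merges 2 transcripts, the longer ending in an exon that overlaps *Nefl*. For reads of the shorter transcript this length is too long and the level too low. The order of the 3 chains thus depends on the transcripts counted and is not settled here. *Prph* came next in every library, at 1140 ± 338 and 830 ± 341 CPM per kilobase. *Ina* followed at 170.0 ± 43.0 and 73.4 ± 22.0, *Vim* at 30.5 ± 9.49 and 13.9 ± 4.91, and *Nes* was last. The ranges of *Prph*, *Ina*, *Vim* and *Nes* over all libraries did not touch, from a lowest *Prph* of 502 to a highest *Ina* of 218 CPM per kilobase. Among all 53858 genes ranked per kilobase in each library, *Nefl* stood between rank 6 and rank 24, and *Prph* between rank 24 and rank 78. *Ina* stood between rank 240 and rank 788. Divided by only the exon bases that no other gene shares, the same counts again put *Nefl* first in all 6 libraries. *Nefm* then stood above *Nefh* in every library but double-labelled pool 2. Reads were not restricted to those bases. The length of *Nefl* fell by 32.8% and that of *Nefm* by 19.2%, which by itself raises *Nefl* more. This is therefore no separate check of the order.

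Filaments are copolymers, so the ratio of subunits within a library was examined next; it does not depend on how libraries are scaled. Per 100 counts of *Nefl*, DiO-only pools 1, 2 and 3 held 4.32, 6.92 and 7.77 counts of *Ina*, and double-labelled pools held 2.53, 3.23 and 1.79. The groups did not overlap, with means of 6.34 ± 1.80 and 2.52 ± 0.717 (SD, n = 3) and a difference in log2 ratio of -1.33 (p = 0.1 in an exact permutation test, two-sided, which is the lowest value possible with 3 pools a group; adjusted over 12 ratios 0.514). Per 100 counts of *Nefh*, *Ina* stood at 3.72, 7.08 and 9.48 counts in DiO-only pools and at 2.76, 3.68 and 2.57 in double-labelled pools. These groups touched without overlap, with DiO-only pool 1 next to double-labelled pool 2 (log2 difference -1.09; exact permutation p = 0.1, adjusted 0.514). Per 100 counts of *Nefm*, *Ina* stood at 2.70, 5.52 and 6.52 counts and at 1.66, 3.23 and 1.57, where the same pair of pools overlapped (log2 difference -1.17; exact permutation p = 0.2, adjusted 0.514).

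The ratios among the neurofilament chains and peripherin overlapped between the groups. Per 100 counts of *Nefl*, *Nefm* stood at 135 ± 21.9 counts over the DiO-only pools and 122 ± 26.9 over the others (SD, n = 3; exact permutation p = 0.5). *Nefh* stood at 98.6 ± 17.1 and 83.1 ± 11.6 counts (SD, n = 3; exact permutation p = 0.4). *Prph* stood at 29.5, 20.9 and 26.0 counts in the DiO-only pools and at 20.97, 10.1 and 21.2 in the double-labelled pools (exact permutation p = 0.3). Double-labelled pool 2 had the lowest peripherin share of all libraries, and DiO-only pool 2 lay just under double-labelled pools 1 and 3. The ratio of *Ina* to *Prph* overlapped as well, with 14.6, 33.1 and 29.9 counts of *Ina* per 100 of *Prph* against 12.1, 31.9 and 8.45 (exact permutation p = 0.3). *Vim*, set against the 5 neuronal subunits together, stood at 0.228, 0.511 and 0.715 counts per 100 and at 0.170, 0.309 and 0.170, so that DiO-only pool 1 lay between the double-labelled pools (exact permutation p = 0.2). In total 2 of 12 ratios had groups without overlap, *Ina* to *Nefl* and *Ina* to *Nefh*, and no ratio could pass the threshold at this group size. Both have *Ina* on top, which stood apart by itself, so they are not separate results. Among single genes, 7.07% of those tested were lower and 5.86% higher without overlap.

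**Figure D2:**
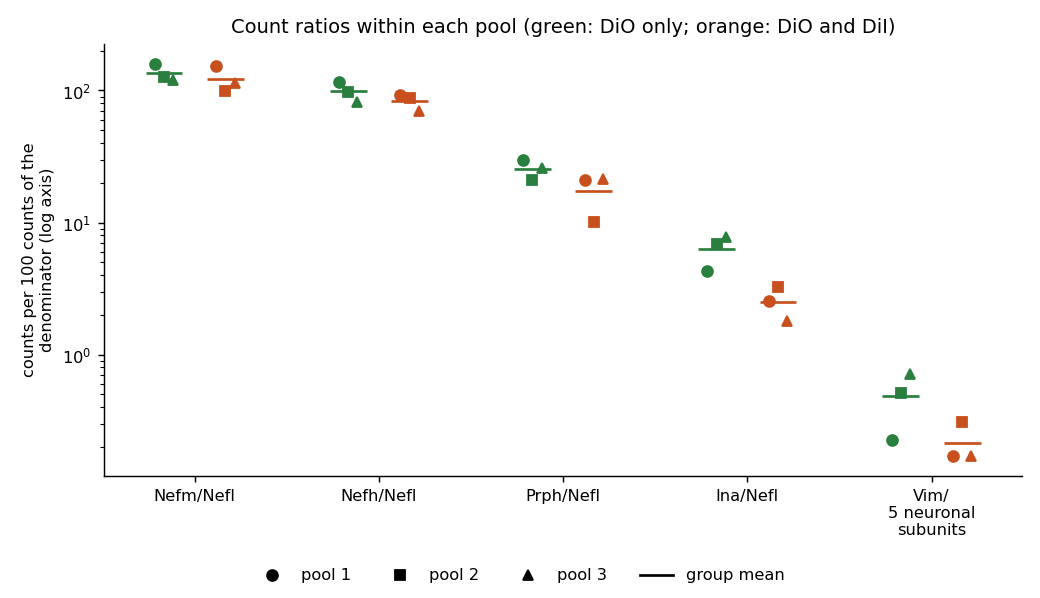
Counts of 1 gene per 100 counts of another within each pool, on a log axis, with 1 symbol per pool and a bar at the group mean. The *Ina* to *Nefl* ratio is lower in all 3 double-labelled pools than in any DiO-only pool, while the other ratios shown overlap.

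Summed over *Nefl*, *Nefm*, *Nefh*, *Prph* and *Ina*, the neuronal subunits took 4.44, 2.89 and 2.45% of all counts in the DiO-only pools and 2.77, 2.74 and 3.92% in the double-labelled pools. The groups overlapped, with means of 3.26 ± 1.05% and 3.14 ± 0.672% (SD, n = 3; exact permutation p = 0.8). The summed level was 33129 ± 10321 and 30727 ± 3134 CPM (SD, n = 3; log2 difference -0.06, exact permutation p = 0.9). Within this sum, *Nefm* gave 36.8 ± 1.93% and 37.3 ± 4.11% of counts, *Nefl* 27.6 ± 2.83% and 31.0 ± 3.28%, and *Nefh* 26.9 ± 2.10% and 25.6 ± 3.25%. *Prph* gave 6.98 ± 0.931% and 5.33 ± 1.81% (exact permutation p = 0.2). The share of *Ina* was 1.05, 1.97 and 2.32% in the DiO-only pools and 0.689, 1.07 and 0.584% in the double-labelled pools (exact permutation p = 0.2). DiO-only pool 1 and double-labelled pool 2 could not be told apart by counting error, with exact binomial 95% intervals of 1.02 to 1.09% and 1.00 to 1.15%. Such intervals leave out the spread between pools. They are also too narrow for counting error, since amplified reads without molecular tags are not independent molecules. For both the sum and the *Ina* share the ranges of the groups overlapped, the share by 1 pool of each group.

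*Vim* and *Nes* are also made by cells that touch motor neurons, so markers of such cells were read beside them. The glial filament gene *Gfap* stood at 5.79, 1.33 and 30.9 CPM in DiO-only pools and at 22.4, 7.99 and 122 CPM in double-labelled pools, with overlapping groups (log2 fold change 1.99 ± 1.09, SE; edgeR adjusted p = 0.899). *Gfap* and *Vim* therefore had fitted changes of opposite sign. The summed CPM of 8 astrocyte markers ran from 928 to 1069 in DiO-only pools and from 940 to 2193 in double-labelled pools, mostly from *Aldoc* and *S100b*. Of 7 tested markers 5 were higher, 4 of them at an unadjusted edgeR p under 0.05, against 3.18% of all genes tested. *Slc1a2*, *Aqp4* and *Gja1* were higher without overlap, where 5.86% of all genes tested were so. *Gjb6* and *Aldoc* were higher with overlap, and *Aldh1l1* and *S100b* were lower with overlap. *Slc1a2* stood at 10.6, 14.9 and 14.15 TMM-scaled CPM in DiO-only pools and at 92.6, 39.6 and 84.0 in double-labelled pools. The summed CPM of 8 oligodendrocyte markers ran from 222 to 624 and from 1305 to 5556. All 8 had fold changes above 0, 6 of them at that p, and 6 were higher without overlap. *Mag* and *Cldn11* overlapped between the groups, each with its highest value in double-labelled pool 2. The adjusted p passed 0.05 for none of these markers. The pools with less *Vim* were thus those with more oligodendrocyte marker RNA and with more RNA of the astrocyte markers *Slc1a2*, *Aqp4* and *Gja1*.

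Most vascular, fibroblast and microglial markers had few counts, *Dcn* apart. The summed CPM of 7 endothelial and pericyte markers was 2.61, 8.81 and 38.9 in DiO-only pools and 9.84, 1.33 and 8.23 in double-labelled pools. Each double-labelled pool had 5 of 7 markers at 0, not the same ones in each, and DiO-only pools 1, 2 and 3 had 2, 3 and 0. *Cldn5*, *Cdh5* and *Pdgfrb* were at 0 in all 3 double-labelled pools, though *Pdgfrb* had only 4 counts over all libraries. In DiO-only pools 1, 2 and 3, *Cldn5* stood at 0, 2.98 and 18.1 TMM-scaled CPM and *Cdh5* at 1.16, 0 and 3.07. *Pdgfrb* stood there at 0, 0 and 0.682. Each was thus highest in DiO-only pool 3 and at 0 in some DiO-only pool, so the groups overlapped. *Rgs5*, the only tested marker of this list, went the other way (log2 fold change 1.07 ± 1.47, SE; edgeR adjusted p = 0.978). Of 6 fibroblast markers, summing to 104 to 198 and to 13.0 to 314 CPM, *Dcn*, of the matrix proteoglycan decorin, made up most, and *Col1a1* was at 0 in 4 of 6 libraries. *Dcn* stood at 96.8, 191 and 159.9 TMM-scaled CPM in DiO-only pools 1, 2 and 3, the same order of pools as *Vim*, and at 319, 10.5 and 7.18 in the double-labelled pools, in another order than *Vim* (edgeR adjusted p = 0.987). Microglial markers, 7 in all, summed to 43.8 to 52.7 and to 19.4 to 74.8 CPM. The 3 tested members, *Csf1r*, *C1qb* and *C1qc*, had fold changes below 0, and the 4 with too few counts, *C1qa*, *Cx3cr1*, *Tmem119* and *P2ry12*, had higher means in the double-labelled pools, where pool 3 held the highest value of each. Ependymal markers, 4 in all, summed to 2.67 to 9.81 and to 2.34 to 14.5 CPM, and *Tmem212* was at 0 throughout. The 5 interneuron markers summed to 7.47 to 128 and to 2.34 to 23.1 CPM. The 7 motor neuron markers summed to 1050 to 1598 and to 1251 to 1993 CPM, and each had at least 1 count in every library. *Mnx1* was near the floor, at 0.3315 CPM in DiO-only pool 2, where 3 counts correspond to 0.9945 CPM. *Chat*, of the enzyme that makes acetylcholine, stood at 77.8 ± 21.4 and 110 ± 27.1 CPM (SD, n = 3), with overlapping groups. *Isl1* went the other way, at 31.7 ± 3.52 and 25.1 ± 8.86 CPM (SD, n = 3), also with overlap. Of the 7 motor neuron markers, 5 had fitted fold changes above 0 and 2 below 0, all with overlapping groups. The part of any of these cell types in the lower *Vim* was not tested.

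**Figure D3:**
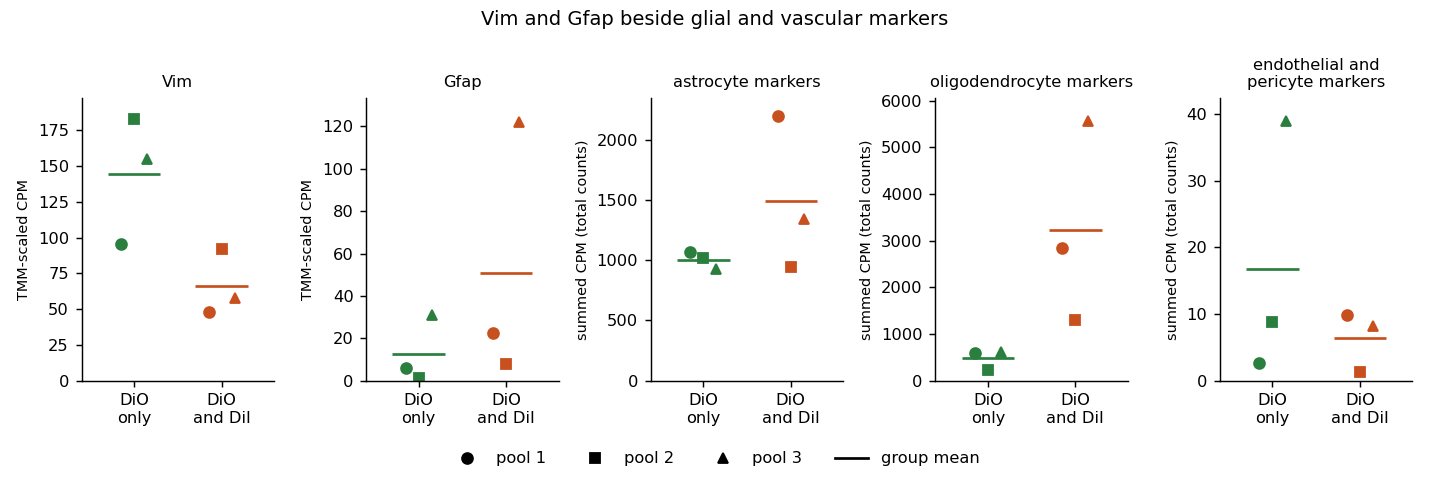
*Vim* and *Gfap* in TMM-scaled CPM, and the summed CPM of marker lists scaled by total counts, for each pool, with 1 symbol per pool, a bar at the group mean and linear axes from 0. Oligodendrocyte markers are higher in every double-labelled pool, the range of 222 to 624 CPM lying below that of 1305 to 5556, while *Vim* is lower in them and *Gfap* and the other lists overlap. The astrocyte sum comes mostly from *Aldoc* and *S100b*.

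*Ina* and *Vim*, the genes that stood apart in TMM-scaled CPM, and *Prph*, which did not, are shown with the bases around their start sites. RefSeq gives these on GRCm38.p6. Each run covers 250 bases before and 50 after the start, 5′ to 3′ on the plus strand, and capitals mark the TATA box core, TATAAA. The windows are chr19:47014431-47014730 for *Ina*, chr2:13574061-13574360 for *Vim* and chr15:99054924-99055223 for *Prph*.
Ina: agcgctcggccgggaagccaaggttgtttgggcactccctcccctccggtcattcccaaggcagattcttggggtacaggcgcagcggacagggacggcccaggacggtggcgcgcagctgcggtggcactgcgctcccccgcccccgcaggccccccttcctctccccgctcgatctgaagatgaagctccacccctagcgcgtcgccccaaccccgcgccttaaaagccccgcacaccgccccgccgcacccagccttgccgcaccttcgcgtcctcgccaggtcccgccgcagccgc
Vim: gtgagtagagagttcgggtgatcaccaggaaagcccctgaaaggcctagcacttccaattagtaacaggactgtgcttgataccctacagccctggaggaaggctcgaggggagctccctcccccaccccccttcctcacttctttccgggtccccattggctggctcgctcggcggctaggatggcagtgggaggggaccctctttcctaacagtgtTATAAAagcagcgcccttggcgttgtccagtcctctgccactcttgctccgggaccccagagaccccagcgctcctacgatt
Prph: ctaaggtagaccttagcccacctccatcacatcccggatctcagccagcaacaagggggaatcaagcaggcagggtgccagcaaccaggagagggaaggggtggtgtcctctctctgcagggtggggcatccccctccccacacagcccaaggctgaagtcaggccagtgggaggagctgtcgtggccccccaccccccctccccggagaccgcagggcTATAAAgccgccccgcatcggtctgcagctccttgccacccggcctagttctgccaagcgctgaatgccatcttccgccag
*Vim* and *Prph* hold the core on the plus strand with its first base 32 and 31 bases before the start, and these letters do not occur in the *Ina* window on either strand. Of 32851 promoter windows of this length, 13.6% hold TATAAA on either strand. The GC box GGGCGG, searched on both strands, lies in the *Ina* window at 2 places and in the *Prph* window at 1, and 35.7% of windows hold it. The AP-1 site TGANTCA, which reads the same on both strands, is in none of the 3 windows and in 7.81% of all windows. The guanine and cytosine content was 71.7% for *Ina*, 59.3% for *Vim* and 64.7% for *Prph*. The genes that stood apart in level thus did not share the TATA core. Start-site sequences of *Nefl*, *Nefm* and *Nefh* were not used here.

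Some reads of these genes fall where a neighbour is annotated too, and could be assigned to it or left uncounted. A long *Nefm* transcript in GENCODE ends with an exon that covers 1108 bases of the first exon of *Nefl*, on the opposite strand. This is 32.8% of the exon bases of *Nefl* and 19.2% of those of *Nefm*. The strand setting of the counting is not given in the sources used here, so in this stretch reads of the light and the medium chain may not be separable, and the *Nefm* to *Nefl* ratio is uncertain to that extent. The first exon of *Ina* shares 456 bases (14.1% of its exon bases) with *Nt5c2*, a nucleotidase gene on the other strand. *Nt5c2* stood at 45.5, 15.6 and 54.1 CPM in DiO-only pools and 28.5, 30.1 and 22.2 CPM in double-labelled pools (log2 fold change -0.52 ± 0.48, SE; edgeR adjusted p = 0.970). *Nefh*, *Prph*, *Vim* and *Nes* share no exon base with another gene of the table.

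**Figure D4:**
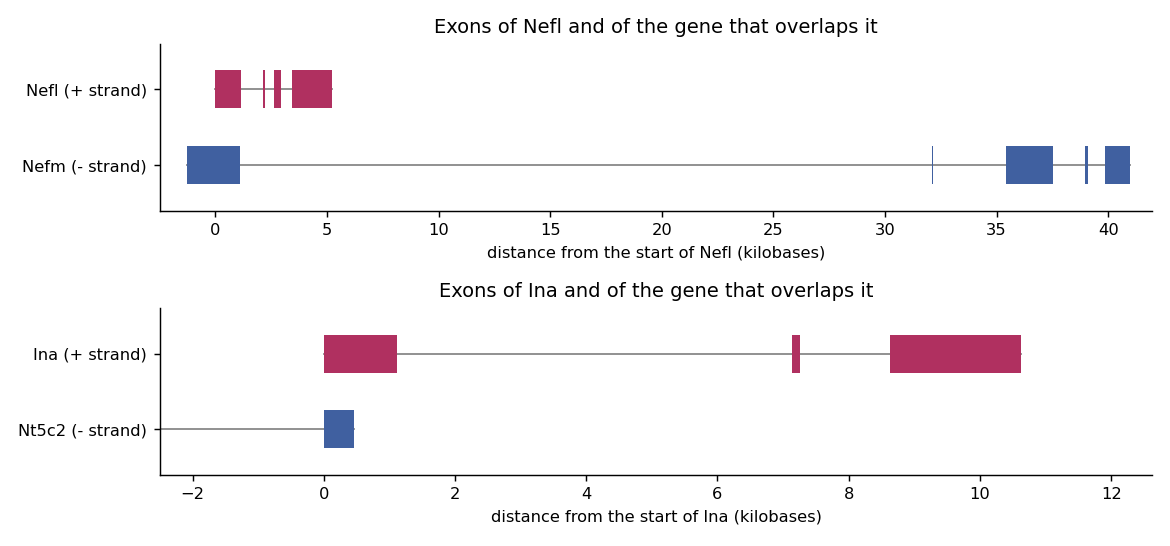
Exons (boxes) of *Nefl* with *Nefm*, and of *Ina* with *Nt5c2*, by distance in kilobases from the start of *Nefl* or *Ina*, with all annotated transcripts of a gene merged. The first exon of *Nefl* lies over the last exon of the long *Nefm* transcript, and the first exon of *Ina* over 456 bases of *Nt5c2*, which runs on beyond the left edge.

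Among 17 other intermediate filament genes, 9 had enough counts to be tested, of which 5 were lower, 4 higher and 0 called, with a median log2 fold change of -0.03. Of the 9, 1 was lower and 1 higher without overlap, against 7.07% and 5.86% of all genes tested. *Lmna*, of the nuclear lamins A and C, stood at 181, 217 and 253 CPM in DiO-only pools and at 135, 114 and 152 CPM in double-labelled pools. It was lower without overlap (log2 fold change -0.70 ± 0.30, SE; unadjusted p = 0.0389, edgeR adjusted p = 0.796). *Sync*, of the filament protein syncoilin, stood at 8.30 ± 1.30 and 4.03 ± 3.58 CPM (SD, n = 3) with overlapping groups (edgeR adjusted p = 0.970). *Iffo2*, an intermediate filament family gene at 5.46 to 6.96 and 7.14 to 9.44 CPM, was higher without overlap (edgeR adjusted p = 0.987). The epithelial keratin genes *Krt8*, *Krt18* and *Krt5* were at 0 in every library, and *Krt14* in 5 of 6. *Des*, of the muscle filament desmin, had 12 counts in all.

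Genes that link, move or modify neurofilaments gave 0 calls in edgeR, and 0 were under an unadjusted p of 0.05. Of the plakins, large linker proteins that tie filaments to other parts of the skeleton, 3 of 7 were tested, and *Plec*, *Macf1* and *Dst* had overlapping groups. *Plec* stood at 794 ± 42.3 and 913 ± 273 CPM (SD, n = 3), with a log2 fold change of 0.20 ± 0.31 (SE; edgeR adjusted p = 0.980). The 7 motors that carry neurofilaments, kinesin and dynein chains and myosin Va, had a median log2 fold change of 0.04, with all groups overlapping. Of these motors 5 were higher and 2 lower, against 48.7% lower over all genes tested. *Kif5a*, a neuronal kinesin, stood at 501 ± 153 and 566 ± 145 CPM (SD, n = 3; edgeR adjusted p = 0.987). *Klc2* and *Kif5c*, a light and a heavy kinesin chain, had log2 fold changes of 0.95 ± 0.97 and 0.21 ± 0.33 (SE).

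Of 12 kinases, phosphatases and related enzymes that act on neurofilament tails, 9 were lower and 3 higher, against 48.7% lower over all genes tested. Their median log2 fold change was -0.16. Of the 12, 2 were lower without overlap, against 7.07% of all genes tested, and 0 were higher without overlap, against 5.86%. *Csnk1e*, of casein kinase 1 epsilon, stood at 74.8, 56.4 and 61.6 CPM in DiO-only pools and at 42.2, 45.4 and 10.5 CPM in double-labelled pools, without overlap (edgeR adjusted p = 0.881). *Mapk3*, of the kinase ERK1, stood at 236, 210 and 210 CPM and at 156, 147 and 164 CPM, again without overlap (edgeR adjusted p = 0.899). Of 6 turnover genes 4 were lower, against 48.7% of all genes tested, with a median of -0.07. *Cast* and *Trim2*, of a calpain inhibitor and a ubiquitin ligase, had log2 fold changes of -0.16 ± 0.33 and -0.08 ± 0.31 (SE).

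The last list held 5 genes whose products were reported to act on neurofilament mRNA, 3 lower and 2 higher, with a median of -0.02. Without overlap 2 were lower and 1 higher, against 7.07% and 5.86% of all genes tested. *Ywhah*, of a 14-3-3 protein, stood at 1067, 837 and 1124 CPM in DiO-only pools and at 768, 572 and 613 CPM in double-labelled pools, without overlap (log2 fold change -0.63 ± 0.30, SE; edgeR adjusted p = 0.870). *Arhgef28*, of a guanine nucleotide exchange factor that binds light chain mRNA, stood at 9.79 ± 2.56 and 5.85 ± 1.47 CPM (SD, n = 3), lower without overlap (edgeR adjusted p = 0.970).

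**Figure D5:**
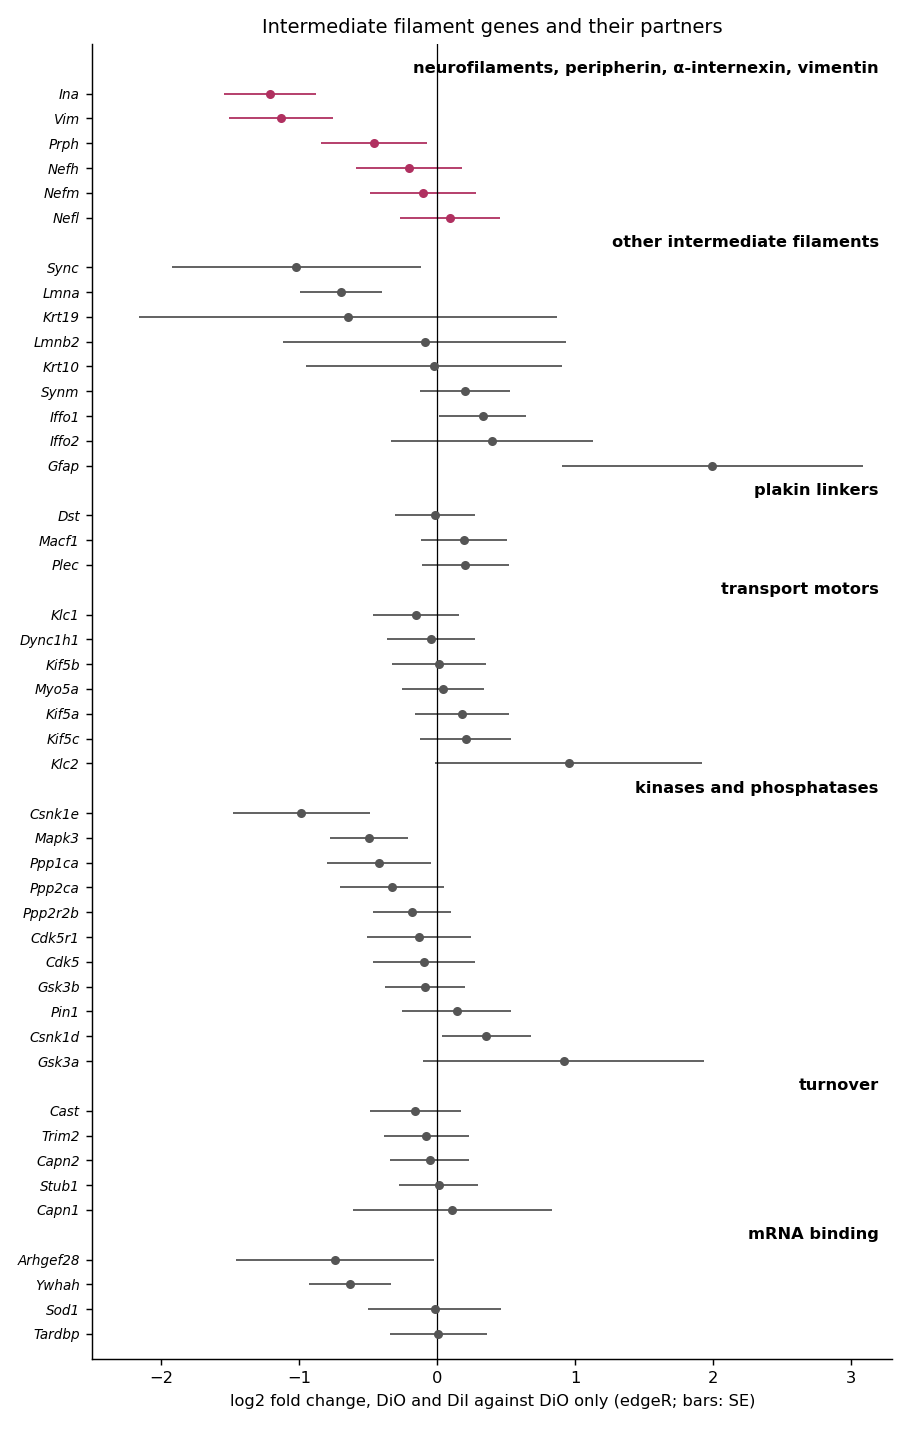
Log2 fold change of double-labelled against DiO-only pools for tested genes (points, with SE as bars), grouped by list. *Ina* at -1.21 and *Vim* at -1.13 lie at the left of the 6 neurofilament and related genes, and the motors and plakins lie near 0 apart from *Klc2* at 0.95.

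Profiles over the 6 libraries were compared with those of 3333 genes with a mean of at least 50 CPM, by the mean absolute difference in log2 CPM after each profile was centred on its own mean. The nearest to *Vim* were *Camsap1*, of a protein that binds microtubule minus ends, *Carhsp1*, *Tmtc1*, *Vps4b*, of an ATPase of endosomal sorting, and *Crmp1*, of a collapsin response mediator. Their differences from the *Vim* profile ran from 0.105 to 0.174, where the median gene stood at 0.653. The nearest to the summed neuronal subunits were *Nmnat2*, of an axon survival enzyme, *Txn2*, of mitochondrial thioredoxin, *Mtpn*, *Clptm1l* and *Bod1*, at 0.0972 to 0.106 against a median of 0.416. These are descriptions over 6 libraries that share depth and scaling.

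Total counts per library ran from 2997714 to 6563403. Genes with at least 1 count numbered 17229 to 22118 in DiO-only pools and 15657 to 16467 in double-labelled pools, so the pools with less *Ina* and *Vim* also had fewer detected genes. The part of this in the levels of *Ina* and *Vim* was not tested.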

How the data were processed

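The deposited values are raw read counts per Ensembl gene in 6 libraries, which per the submitters' processing notes came from FastQC, HISAT2 and HTSeq with mm10. Per the labels' protocols, cDNA was amplified by 20 cycles of PCR, and no molecular tag is mentioned. Not given in the sources used here are tool versions, annotation, strand setting and the treatment of reads with several matches. The single-library files held the same counts as the joint table. Genes were filtered with filterByExpr by group (12954 kept, 99.2% of counts), scaled with TMM factors, and compared with the robust quasi-likelihood test of edgeR 4.0.16 in R 4.3.3, with Benjamini-Hochberg adjustment over all genes tested and a threshold of 0.05. The test was tested on simulated data. An SE is the fold change over the root of its F statistic. DESeq2 1.42.0 and limma 3.58.1 were alternatives, beside other scalings, filters, a replicate block and leaving out each library. Ratios used log2 counts with 0.5 added, and exact two-sided permutation tests. Exon lengths and coordinates came from GENCODE M21 (GRCm38), which held all 53858 genes, and start-site sequences from RefSeq, which matched 4 of the 7 genes. The 7 genes and all lists were chosen with earlier results of these data known. Named were all 7 genes, up to 3 tested genes of smallest p per list of partners, cell type markers, and the 5 nearest profiles; *Nt5c2*, *Iffo2*, *Des* and genes at 0 counts were named after their values were seen. Of the list genes, 3 are counted but not reported here by name. Figures were drawn with matplotlib 3.10.9.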

Additional observations from a re-analysis of the deposited data

How the results depend on the processing

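The number of genes called over all genes was 0 in the fit reported. It was 79 in edgeR without a filter on low counts, 75 in DESeq2 on all genes with any count, and a fit with a replicate block gave 23. In the other settings, each run without 1 library included, it was 0. None of the 7 genes was called in any of the 14 settings. *Ina*, *Vim* and *Prph* were lower in all 14. The replicate block gave *Ina* a log2 fold change of -1.22 with an edgeR adjusted p of 0.0699, and *Vim* -1.14 with 0.206. The labels do not say that equal numbers mark pairs. Deviations from the group means correlated at 0.0742, 0.228 and 0.203 for pools 1, 2 and 3, and every pool correlated best with its own number, a hint from the data only.

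Leaving out 1 library in turn turned the sign of several small differences, from -0.11 to 0.22 for the log2 fold change of *Nefl*, -0.36 to 0.14 for *Nefm* and -0.49 to 0.024 for *Nefh*. The log2 ratio difference ran from -0.27 to 0.0061 for *Nefh* to *Nefm* and from -0.67 to 0.029 for *Prph* to *Nefh*. The summed neuronal level ran from -0.34 to 0.13, the share of *Nefm* from -1.59 to 2.52 percentage points and that of *Nefh* from -3.03 to 0.174. List medians ran from -0.055 to 0.40 for other intermediate filaments, -0.078 to 0.34 for plakins and -0.34 to -0.15 for kinases and phosphatases. For *Ina* to *Nefl* the log2 ratio difference stayed between -1.58 and -1.11. With 3 pools a group, ratios cannot go below an exact permutation p of 0.1. The ratio of *Nes* could not be taken without a pseudocount.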
